A study of Mus musculus with 12 samples.

Results

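Conventional dendritic cells (cDCs) of the mouse spleen fall into the subsets cDC1 and cDC2, and the 2 were compared here among the cells whose sample titles carry the letter L. The comparison takes 6 of the study's 12 RNA sequencing libraries, 3 titled L-cDC1 and 3 titled L-cDC2. It covers 12434 of the 55322 entries of the deposited gene table, the genes that reached 1 FPKM in 3 or more of the 12 libraries. FPKM is the number of reads scaled by gene length and library total, so levels of different genes can be set beside each other. The remaining 6 libraries, 3 titled M-cDC1 and 3 titled M-cDC2, lent their spread to the model and served in 1 test given last. Neither L nor M is spelled out in the titles.

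The labels give all 4 groups the same tissue (spleen), cell type and genotype, Il7r-cre; Rosa26-lsl-tdTomato, and name no treatment. In mice of that genotype Cre is made where Il7r, the receptor chain for interleukin 7, is expressed, and the reporter then stays on in those cells and their progeny, lymphocytes included. The protocol in the same labels instead describes WT C57BL/6J animals aged 7 to 8 weeks in SPF housing, so the labels do not agree on the genotype. The sorting gates are not in the sources used here, nor is a link between a library and an animal. P-values therefore measure the spread between these libraries, which may be technical.

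As background, cDC1 depend on the transcription factors Irf8 and Batf3, take up material from dead cells and present it on MHC class I to CD8 T cells, a route called cross-presentation. The other subset, cDC2, depends more on Irf4, Notch2 and Relb and presents chiefly on MHC class II to CD4 T cells. In the spleen cDC1 are found by Xcr1, Cd8a and Clec9a, and cDC2 by Sirpa, Cd4 and a group of C-type lectins.

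Before the subsets are compared, 1 library and some markers of other cells have to be named. The L libraries held 18149614 to 23825979 reads, so that 3 reads on a gene of 1 kb came to 0.126 to 0.165 FPKM. Markers of B cells, a list that includes the antibody chains, summed to 635, 701 and 1018 FPKM in the L-cDC1 libraries and to 1015, 3513 and 1709 FPKM in the L-cDC2 libraries, so that L-cDC2 replicate 2 stood apart. Of the 16 B cell markers tested, 11 were lower in L-cDC1 and 1, Fcrla, was higher, and 9 were lower without L-cDC2 replicate 2. After median-of-ratios scaling, described below, these counts of lower B cell markers were 10 with that library and 5 without it. Markers of NK and cytotoxic cells summed to 75.5, 72.3 and 69.2 FPKM in L-cDC1 and to 539.9, 585 and 607 in L-cDC2, with 8 of 9 tested lower in L-cDC1 and Klrk1 higher, and those of T cells to 7.79 to 15.1 against 34.5 to 47.8, with 6 of 7 lower. Ccl5 (391 FPKM) and Klrd1 (115 FPKM) made up most of the L-cDC2 sum of the NK list, while Ncr1, which defines NK cells, was at 5.8 FPKM. In M-cDC2 libraries the NK list reached a similar sum, 436 to 666 FPKM, but Gzma was listed at 0 there, against 18.5 FPKM in L-cDC2. Haemoglobin and platelet genes went the other way, at 35.1, 35.2 and 52.9 FPKM in L-cDC1 against 16.4, 16.6 and 10.8 in L-cDC2, with 5 of 6 higher in L-cDC1 and Car2 lower. Myeloid lists were closer in sum, with monocyte and macrophage markers at 677 to 691 FPKM in L-cDC1 and 521 to 665 in L-cDC2, and plasmacytoid DC markers at 353 to 381 and 446 to 491. Their members went both ways. Of 16 monocyte and macrophage markers tested 4 were higher and 6 lower in L-cDC1, and of 10 plasmacytoid DC markers 2 and 4. Treml4 was at 290.4 FPKM in L-cDC1 against 66.6 in L-cDC2, and Adgre1 at 1.89 against 94.9. The neutrophil list summed to 0.103 to 2.59 against 40.5 to 64.7 FPKM, most of it Mmp9, while S100a8 was at 0.678 and 0.481 FPKM. What part these cells have in the differences below was not tested, except that counts are repeated without L-cDC2 replicate 2 where that matters.

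**Figure D1:**
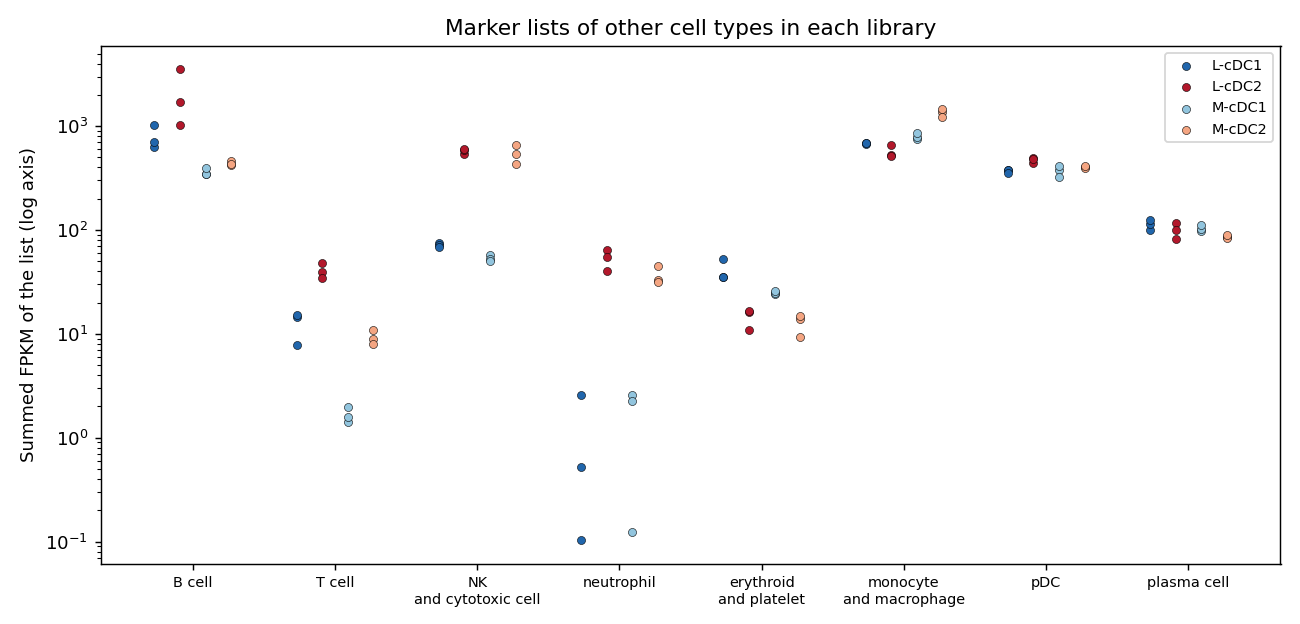
Summed FPKM (log axis) of 8 marker lists of other cell types in each library, 1 point per library and 3 per group. L-cDC2 replicate 2 stands above the other L libraries for B cell markers at 3513 FPKM, and the NK list is high in the cDC2 libraries of both L and M.

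L-cDC1 and L-cDC2 differed in the expression of 4913 of the 12434 genes tested (39.5%) at a limma adjusted p under 0.05. As deposited, 1605 genes (12.9%) were higher in L-cDC1 and 3308 (26.6%) were lower. After median-of-ratios scaling, which divides each library by its median ratio to a typical library, 2250 genes (18.1%) were higher and 2369 (19.1%) were lower. No gene was called in opposite directions on the 2 scales. All 1605 higher genes and 2369 of the 3308 lower genes were called both ways, while 939 lower calls ended and 645 higher calls appeared with scaling. The share of calls that were higher in L-cDC1 thus went from 32.7% to 48.7%.

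Scaling shifted the differences towards L-cDC1. Its factors were 0.942 to 0.973 in L-cDC1 libraries and 1.098 to 1.105 in L-cDC2 libraries, and the median log2 difference over all genes went from -0.19 to -0.04. The median change of a single gene's difference was 0.17. These differences, and those below, are L-cDC1 minus L-cDC2 in log2(FPKM + 1). Adding 1 makes a difference between low levels look smaller than it is. The share of the leading genes differed between the subsets: the 50 genes with most reads took 24% to 24.9% of the reads in L-cDC1 and 16.6% to 17% in L-cDC2. Fewer genes reached 1 FPKM in L-cDC1 libraries, 10535 to 10787, than in L-cDC2 libraries, 11465 to 11570.

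Counts of the largest differences changed less with the scale than counts at a log2 difference of 1 or more. As deposited, 698 genes (5.61%) were higher by a log2 difference of at least 1 and 1462 (11.8%) lower, against 876 (7.05%) and 1183 (9.51%) after scaling. At 2 or more, the counts were 225 higher and 420 lower as deposited, and 251 and 373 after scaling. At 4 or more the counts were 48 and 69, then 50 and 60, and at 6 or more 6 and 10, then 7 and 10. By level the counts also moved with the scale. Among the 583 genes whose higher subset averaged over 100 FPKM, 213 were higher and 197 lower in L-cDC1 as deposited, and 279 and 160 after scaling. Among the 4961 genes under 5 FPKM the counts were 355 and 1008 as deposited and 456 and 737 after scaling. The 3 libraries of one subset did not overlap the 3 of the other for 1984 higher genes (16.0%) and 4064 lower genes (32.7%) as deposited, and for 2789 (22.4%) and 3036 (24.4%) after scaling. In the lists below, a count of 2 or fewer in 1 direction often moved by 1 or 2 genes when a single library was left out, as with the 2 NF-kB genes higher in L-cDC1 (1 without any one of the 6 libraries) and the 2 ER genes lower after scaling (0 without either L-cDC1 replicate 3 or L-cDC2 replicate 3), and nothing is read from such counts. The counts of each list stand against the shares over all genes, 12.9% higher and 26.6% lower as deposited and 18.1% and 19.1% after scaling, and a list near these shares is not set apart by its counts.

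**Figure D2:**
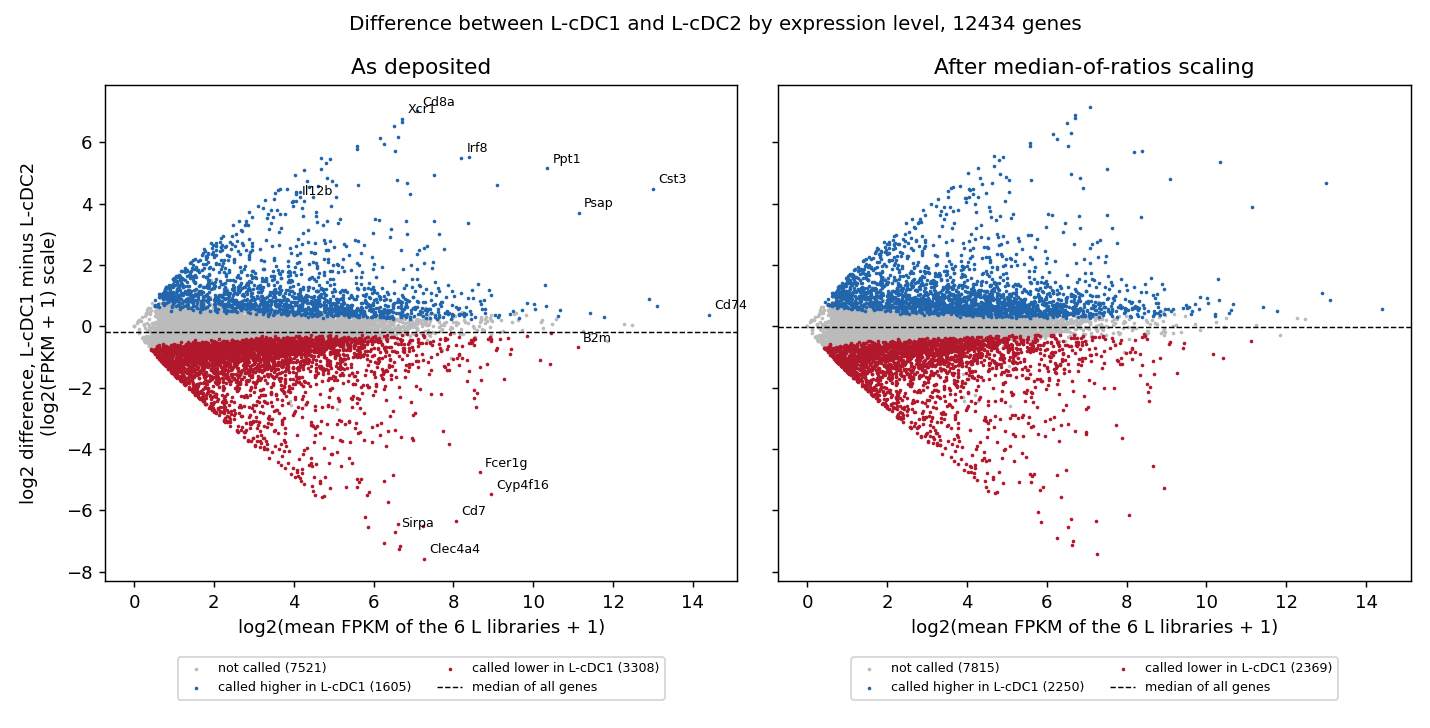
Log2 difference L-cDC1 minus L-cDC2 against the log2 mean level of the 6 L libraries for 12434 genes, as deposited (left) and after median-of-ratios scaling (right). Each point is a gene, blue where higher and red where lower in L-cDC1 at an adjusted p under 0.05, and the dashed median line moves from -0.19 to -0.04.

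Identity genes followed the subset labels. The identity lists were chosen with earlier results of these data known, so their counts are no independent check of the labels. All 22 genes of a cDC1 identity list were higher in L-cDC1 on both scales, with a median log2 difference of 4.97 as deposited and 5.16 after scaling. Summed over the list, the L-cDC1 libraries stood at 6905, 6383 and 6166 FPKM and the L-cDC2 libraries at 482, 562 and 544. Of 25 cDC2 identity genes 23 were lower in L-cDC1 on both scales, with medians of -3.47 and -3.30, and the sums were 352, 371 and 361 against 2677, 2657 and 2778 FPKM. The exceptions were Cd1d1, which presents lipids to NKT cells and was higher in L-cDC1 by 1.47 (adjusted p = 7.96e-09), and Notch2, at 18.4 and 21.1 FPKM and not called.

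Several of the most distant genes were higher in L-cDC1. Plpp1, a lipid phosphatase of the membrane, stood at 94.2, 81.6 and 105 FPKM in the 3 L-cDC1 libraries and at 0.528, 0.944 and 0.378 in L-cDC2. Rab7b, a GTPase of late endosomes, was at 202, 182 and 187 against 2.83, 1.33 and 1.04 FPKM. Cd36, a scavenger receptor for lipids and dead cells, was at 209, 178 and 159 against 2.23, 4.86 and 1.18 FPKM. For each of these 3 genes the lowest L-cDC1 library lay far above the highest L-cDC2 library, and the log2 differences were 5.88 (adjusted p = 6.18e-12), 6.18 (2.8e-10) and 5.72 (6.21e-10). Gcsam (6.53), the orphan receptor gene Gpr141b (6.67), the disulphide isomerase gene Pdia5 (6.16), Ifi205 (5.97) and Mpeg1 (4.95), which encodes the pore protein perforin-2, were of the same order.

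At the other end the distances were as large. Sirpb1a, a SIRP family receptor, stood at 0.462, 0.189 and 0.205 FPKM in L-cDC1 and 204, 171 and 218 in L-cDC2. Cd7, an immunoglobulin-like receptor best known from T and NK cells, was at 6.11, 4.34 and 6.27 against 535, 509.7 and 535 FPKM. Tgm2, a transglutaminase, was at 0.62, 0.0942 and 0.703 against 116, 108 and 97.5. The log2 differences were -7.27, -6.34 and -6.22 (adjusted p = 2.36e-13, 4.45e-12 and 3.16e-11). Lack of overlap was again a condition of their choice and adds no support. The same holds for other genes of the 20 largest differences each way that are named below. Many list members below were picked by smallest p or after their values were seen, so their lack of overlap adds no support either. Over all genes the subsets did not overlap for 16.0% (higher) and 32.7% (lower) as deposited. The fatty acid hydroxylase gene Cyp4f16 was the most abundant of the 20 largest, at 20.7 ± 2.57 against 963 ± 93.4 FPKM (SD, n = 3 each). Bex6 (-5.74), the macrophage proteases Mmp9 (-5.56) and Mmp12 (-5.202), and Cybb (-5.25), the catalytic subunit of the phagocyte oxidase, were also among them. Sirpb1a, Sirpb1b and Sirpb1c are near copies, as are the Clec4a genes, and reads may have been split between copies in the authors' counting. In bulk RNA a lower level of a gene can come from fewer cells that express it or from less RNA per cell, and these cannot be told apart.

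Transcription factors of the cDC lineage stood on both sides, with more on the cDC2 side. Of 42 tested, 7 were higher and 24 lower in L-cDC1 as deposited, and 8 and 20 after scaling. Irf8, on which cDC1 depend, stood at 557, 546 and 606 FPKM in L-cDC1 and 9.24, 15.9 and 10.3 in L-cDC2, a mean ratio of 48.3, with no overlap. Mycl, which supports cDC1 proliferation and function, was at 116 ± 6.62 against 29.6 ± 1.94 FPKM, Nfil3, which acts upstream in cDC1 development, at 7.65 ± 2.99 against 2.53 ± 1.13, and Zfp366 (DC-SCRIPT) at 76.8 ± 5.41 against 39.3 ± 3.38. Id2 and Batf3 were higher by less, 0.94 (adjusted p = 0.000186) and 0.88 (4.12e-05).

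On the cDC2 side T-bet came first. Tbx21, the gene of T-bet, was at 0.425, 0.0388 and 1.11 FPKM in L-cDC1 and 45.6, 51.1 and 46.7 in L-cDC2, Bhlhe40 at 1.66, 1.93 and 3.35 against 66.7, 63.4 and 44.1, and Irf4 at 1.16, 0.0197 and 0.469 against 9.96, 9.96 and 10.8. The groups did not overlap for any of the 3, and the log2 differences were -5.06, -4.17 and -2.92. Tcf7 (-3.39), a T cell factor, Spib (-2.95), Zeb2 (-2.44), Runx3 (-1.89) and Klf4 (-1.75) were lower in L-cDC1 as well. Factors shared by all cDCs were close: Zbtb46, which sets cDCs apart from other myeloid cells, was at 47.6 and 54.2 FPKM with a difference of -0.18 (adjusted p = 0.312), and Bcl6, Etv6, Myc and Klf2 were not called either. Spi1 (PU.1), with a difference of -0.40, was called lower as deposited and not after scaling, and Runx1 (0.48 scaled) was called higher after scaling alone.

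**Figure D3:**
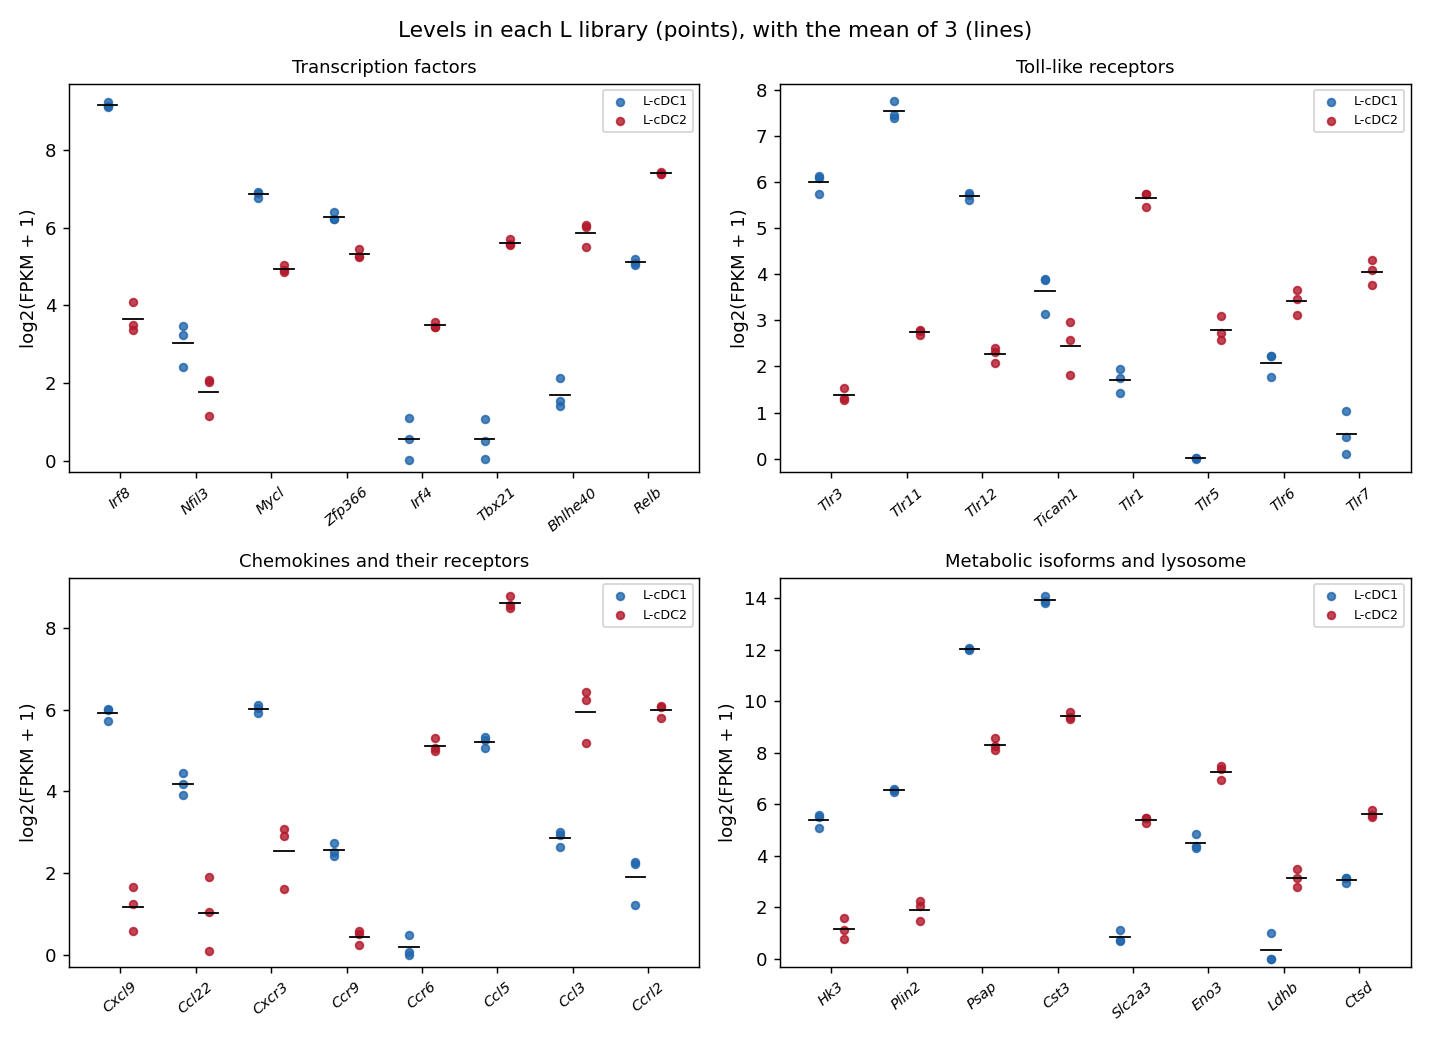
Levels of 32 genes in log2(FPKM + 1), 3 points per subset for the 3 libraries and a line at their mean, in 4 panels by function. In each panel the genes high in L-cDC1 stand on the left and those high in L-cDC2 on the right.

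C-type lectins, receptors for sugars and for ligands on dead cells or microbes, gave some of the widest differences in both directions. Of 25 tested, 7 were higher and 16 lower in L-cDC1 on both scales, and the median was -1.65. With members at 0 in a group set at a floor of 3 reads over that group, the median was -2.37. For those members alone no 1 was added to the FPKM, so the -2.37 is not on the log2(FPKM + 1) scale throughout. Clec9a, which binds actin exposed by dead cells, was at 92.8, 96.9 and 91.8 FPKM in L-cDC1 and 0.535, 0.864 and 0.786 in L-cDC2. Cd207 (langerin) was at 32.4, 68.9 and 47.6 against 0.0827, 0 and 0.145, and Clec4b2 at 39.2, 37 and 33.2 against 0.107, 0.0391 and 0.141. All 3 were near 0 in each L-cDC2 library. The endocytic receptor Ly75 (DEC-205) and the inhibitory uric acid receptor Clec12a were higher by 2.57 and 3.14.

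The Clec4a group of inhibitory and adaptor-coupled lectins stood on the cDC2 side. Clec4a4 (DCIR2) was at 0.681, 0.311 and 0.808 FPKM in L-cDC1 and 261, 296 and 358 in L-cDC2, and Cd209a (DC-SIGN) at 4.88, 5.94 and 4.13 against 157, 170.4 and 186. Clec4a1 (-5.54), Clec4a2 (-4.46), Clec4a3 (-4.11), Clec4b1 (-4.22), the dectin-2 gene Clec4n (-3.18) and Clec10a (-2.37) were lower in L-cDC1. Dectin-1, the beta-glucan receptor encoded by Clec7a, was lower by less, at 1.93 ± 0.502 against 6.9 ± 1.49 FPKM. Mgl2 was listed at 0 in all 3 L-cDC1 libraries and at 4.25, 2.06 and 5.08 FPKM in L-cDC2.

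Paired inhibitory and activating receptors of the SIRP, Siglec, Lilr, Pir, Cd300 and Trem families stood mostly on the cDC2 side. Of 30 tested, 4 were higher and 25 lower as deposited, and 4 and 24 after scaling, with medians of -2.76 and -2.59. Siglece, an inhibitory receptor for sialic acid, was at 0, 0.0782 and 0.0283 FPKM in L-cDC1 and 33.3, 35.3 and 39.2 in L-cDC2, Cd300ld at 0.02, 0.0365 and 0.079 against 40.9, 49.3 and 37.8, and Cd300lf at 1.65, 3.61 and 1.05 against 93.1, 89.4 and 91.7. None of these overlapped. The B cell receptors of this list, Cd22 and Siglecg, were lower in L-cDC1 (-3.18 and -3.16), beside the B cell markers given above. The 4 on the cDC1 side were Treml4, a receptor for late apoptotic cells at 290.4 ± 12.6 against 66.6 ± 5.57 FPKM, Cd300c, Cd300e and Lilr4b. The adaptors that carry the activating members were both lower, Fcer1g at 27.6 ± 2.31 against 776 ± 60.7 FPKM and Tyrobp at 732 ± 36.7 against 1560.2 ± 87.9.

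Fc and complement receptors followed with 3 higher and 10 lower of 19 as deposited, and 4 and 9 after scaling. The 4 came to 2 without any one of L-cDC1 replicates 1 and 2 and L-cDC2 replicates 2 and 3. Fcgrt, the neonatal Fc receptor that recycles IgG and albumin, was at 96.8, 98 and 109.9 FPKM in L-cDC1 and 22.9, 19.8 and 18.5 in L-cDC2. The inhibitory Fc receptor Fcgr2b was higher by 1.75. Properdin, encoded by Cfp, was at 104 ± 4.06 against 648 ± 28.6 FPKM, and Itgam (CD11b) and Fcgr3 were lower (-2.78 and -1.23).

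Toll-like receptors, sensors of microbial products at the cell surface or in endosomes, were divided by receptor. Of 20 genes of the family and its adaptors, 4 were higher and 6 lower as deposited, and 7 and 6 after scaling. Tlr11, a sensor of profilin and flagellin, was at 215, 176 and 168 FPKM in L-cDC1 and 5.83, 5.45 and 5.96 in L-cDC2, its partner Tlr12 at 52.2, 53.3 and 47.7 against 3.95, 3.21 and 4.32, and Tlr3, which detects double-stranded RNA, at 69.2, 67.7 and 52.7 against 1.42, 1.88 and 1.5. None overlapped. Ticam1, the adaptor of Tlr3, was higher too, by 1.18 (adjusted p = 0.00468). The opposite held for Tlr1 (-3.95) and Tlr6 (-1.34), which pair with Tlr2 for lipopeptides, for the flagellin receptor Tlr5 (-2.79), for Tlr7 (-3.53), a sensor of single-stranded RNA at 0.493 ± 0.498 against 15.8 ± 3.12 FPKM, and for the adaptor Ticam2 (-3.898). Tlr9, Tlr13, Tlr4 and Myd88 were not called on either scale, with Tlr13 at 32 and 35.3 FPKM. Tlr2, Ly96 and the trafficking chaperone Unc93b1 were called higher after scaling alone.

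Cytosolic sensors were mostly on the cDC2 side. Of 22 tested, 13 were lower and 1 higher in L-cDC1 on both scales. Ddx58 (RIG-I), a sensor of viral RNA, was at 0.39, 0.479 and 0.0963 FPKM in L-cDC1 and 19.3, 19.3 and 15.2 in L-cDC2. Sting1, the adaptor of cyclic dinucleotide sensing, was at 23.6, 25.1 and 19.3 against 82.7, 95.5 and 96.1, and Nod1, a sensor of peptidoglycan, at 10.4, 13.2 and 17.9 against 93.5, 78.3 and 70.8. The subsets did not overlap in any of the 3. Nlrc4 (-3.08), Nlrp10 (-2.62), Casp1 (-2.13) and Nlrp3 (-1.73) of the inflammasomes and Ifih1 (-1.53) were lower as well, whereas Cgas, Mavs, Pycard and Gsdmd were not called. The 1 higher gene, Nlrc5, is the transactivator of MHC class I genes (0.71, adjusted p = 0.0107), and without L-cDC1 replicate 2 it was no longer called (0.51, adjusted p = 0.053).

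Receptors that position cells differed in kind rather than in number. Among 12 chemokine receptors 4 were higher and 3 lower on both scales. Beside Xcr1, Cxcr3, which follows interferon-induced chemokines, was at 59.1, 67.6 and 64.8 FPKM in L-cDC1 and 2.04, 7.4 and 6.46 in L-cDC2, and the gut-homing receptor Ccr9 at 5.63, 4.35 and 4.71 against 0.409, 0.496 and 0.177. Ccr6, the receptor of Ccl20, was at 0.388, 0 and 0.045 against 30.6, 32.1 and 38.7, and the atypical receptor Ccrl2 at 3.68, 3.79 and 1.31 against 67.3, 54.7 and 65.8. No library of one subset reached into the range of the other for these 4. Ccr7, which guides mature DCs to T cell zones, was alike in mean at 72.7 ± 5.4 and 72.9 ± 4.27 FPKM (difference -0.01, SE 0.129).

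Receptors for lipids, nucleotides and metabolites divided in the same way, 9 higher and 10 lower of 29 as deposited and 10 and 10 after scaling. Gpr183 (EBI2), the oxysterol receptor that holds cDC2 at the bridging channels of the spleen, was at 2.14, 1.72 and 1.92 FPKM in L-cDC1 and 59.3, 78.9 and 67.8 in L-cDC2. P2ry14, a receptor of UDP-sugars, was at 28, 27.4 and 22.9 against 0.118, 0.307 and 0.189. Ptger3 (-3.64) and the short-chain fatty acid receptor Ffar2 (-3.27) were lower in L-cDC1, while Ptger2 (1.83), the long-chain fatty acid receptor Ffar4 (2.003), P2ry6 (2.1) and Adora3 (2.17) were higher, so that members of 1 receptor family stood on both sides.

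Chemokines and cytokines were sorted by gene as well. Cxcl9, a ligand of Cxcr3, was at 62.4, 64 and 51.4 FPKM in L-cDC1 and 0.501, 2.16 and 1.35 in L-cDC2, Cxcl16 at 99.4, 75.8 and 75.3 against 12.6, 13.3 and 8.21, and Ccl22 at 14.1, 17.2 and 20.8 against 2.71, 0.0592 and 1.07. The inflammatory chemokines Ccl5, at 32.3, 37.3 and 39 against 358, 377 and 439.7 FPKM, and Ccl3, at 6.63, 6.99 and 5.25 against 84.9, 35.1 and 74.9, had all L-cDC2 libraries above all L-cDC1 libraries. Ccl5 is also a product of NK and T cells, whose marker sums are given above. Of the 12 chemokines tested 4 were higher and 4 lower as deposited, and 5 and 4 after scaling.

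Among 19 cytokines 4 were higher and 12 lower as deposited, and 4 and 9 after scaling. Il12b, the shared subunit of interleukins 12 and 23, was at 26.5, 26.9 and 38.5 FPKM in L-cDC1 and 0.64, 0.816 and 1.04 in L-cDC2. Il15, which sustains NK and memory CD8 T cells, was at 13.4, 8.92 and 11.6 against 3.32, 1.83 and 2.46, and Il27 was higher by 1.09. Ltb, a lymphotoxin chain with a role in lymphoid tissue and cDC2 maintenance, was at 25.2, 30.6 and 36.1 against 461, 424 and 441 FPKM, and Il1b at 37.9, 32.9 and 25 against 88.9, 86.7 and 90.2. For each of these 4 genes given by library the subsets did not overlap. Tnf (-1.09) and Tnfsf8 (-2.72) were lower in L-cDC1.

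Cytokine receptors counted 5 higher and 18 lower of 35 as deposited and 8 and 15 after scaling. The decoy receptor Il1r2 was at 0.0554, 0.581 and 0.11 FPKM in L-cDC1 and 28, 32.1 and 28.3 in L-cDC2, the shared gamma chain Il2rg at 14.6, 19.5 and 19.3 against 229, 231 and 236, and Csf1r at 1.56, 1.04 and 1.19 against 20.9, 24 and 27.4. Il21r (-3.44), Il17ra (-1.36), Ifnar2 (-0.93) and Il6ra (-0.97) were lower too. Il7r, the gene that drives Cre in the labelled genotype, was at 0.193, 0.0103 and 0.325 FPKM in L-cDC1 and 2.02, 2.27 and 4.29 in L-cDC2 (-1.68, adjusted p = 0.000116). On the other side, Flt3, the growth factor receptor of cDCs, was at 190.4 ± 14 against 109 ± 16.1 FPKM, and Acvrl1, Csf2rb2, Il15ra and Ifngr1 were higher by 2.86, 1.35, 0.92 and 0.57. Ifnar1, Il10ra, Csf2rb and Ifngr2 were not called.

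Molecules that T cells read at contact were divided between stimulatory and inhibitory members on both sides. Of 25 tested, 7 were higher and 13 lower as deposited, and 9 and 12 after scaling. Btla was at 248, 204 and 159 FPKM in L-cDC1 and 20.1, 27.7 and 23.8 in L-cDC2, Cd86, a ligand of Cd28 and Ctla4, at 189.6, 179 and 132 against 36.3, 49.1 and 47.7, and Havcr2 (TIM-3), an inhibitory receptor of cDC1, at 345, 374 and 308 against 164, 174 and 171. The PD-1 ligands were both on the cDC2 side, Cd274 (PD-L1) at 4.6, 5.15 and 4.63 against 75.2, 78.6 and 79.3 FPKM and Pdcd1lg2 (PD-L2) at 0.324, 0.615 and 0.453 against 27.6, 19.1 and 20.4. All 5 were free of overlap. Icosl (26.9 against 82.4 FPKM), Cd80 (-0.91) and Lgals9 (-1.29) were lower in L-cDC1, and Cd40 was at 37.8 and 38.2 FPKM and not called. Genes named for mature migratory DCs gave 9 higher and 13 lower of 32 as deposited and 9 and 12 after scaling, with Fscn1 (-1.26) lower and Apol7c (3.38), Laptm4b (3.61) and Dnase1l3 (1.44) higher.

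In the MHC class I pathway the loading steps were higher in L-cDC1, and the heavy chains H2-K1 and H2-D1 were not called as deposited. Of 23 genes 12 were higher and 2 lower as deposited, and 13 and 2 after scaling, with medians of 0.53 and 0.72. The peptide transporter Tap1 was at 162, 161 and 158 FPKM in L-cDC1 and 67.4, 56.9 and 63.7 in L-cDC2, and Tap2 at 108, 106 and 114 against 49.3, 47 and 53.3. The immunoproteasome subunit Psmb9 was at 266, 268 and 287 against 116, 127 and 126. All 3 were higher without overlap, as were Psmb8 (0.95), the proteasome activators Psme1 (1.09) and Psme2 (0.62), tapasin (Tapbp, 0.57) and Pdia3 (1.37). H2-K1, at 816 ± 66.9 and 877 ± 49.7 FPKM, was not called on either scale, H2-D1 was called higher after scaling alone (0.23, 0.43 scaled), and B2m, the light chain, was lower in L-cDC1 at 1817, 1784 and 1516 against 2571, 2752 and 2846 FPKM.

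MHC class II presentation had 9 genes higher and 9 lower of 20 on both scales, and 6 lower after scaling without L-cDC2 replicate 2, the library high in B cell markers. The abundant chains were slightly higher in L-cDC1: H2-Ab1 at 10734 ± 662 against 6764 ± 394 FPKM, H2-Aa at 3127 ± 127 against 2310.3 ± 83.2, and the invariant chain Cd74 at 24374 ± 1604 against 18668 ± 451, with differences of 0.67, 0.44 and 0.38. The less abundant chain H2-Eb2 went the other way, at 1.88 FPKM in L-cDC1 against 18.8 in L-cDC2. The direction of 3 chains did not hold under quantile normalization, which forces equal distributions on all libraries and gave -0.45 for H2-Ab1, 0.00 for H2-Aa and -0.22 for H2-Eb1. The editors of the peptide groove went both ways, with H2-DMa (0.56) and H2-DMb1 (1.199) higher and H2-DMb2 (-1.74), H2-Oa (-0.93) and H2-Ob (-0.62) lower. H2-Oa and H2-Ob, which restrain H2-DM, are also expressed by B cells. The transactivator Ciita was at 93.2 and 100.5 FPKM and not called. Cathepsin S (Ctss, -0.74) and the thiol reductase Ifi30 (-1.08), which prepare antigen for class II, were lower.

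A few lysosomal genes took a large share of all L-cDC1 reads. Cst3, the cysteine protease inhibitor cystatin C, was at 14495, 15019 and 17331 FPKM in L-cDC1 and 635, 678 and 774 in L-cDC2, and held 1.84% to 2.19% of the reads in L-cDC1 libraries against 0.0804% to 0.0981%. Psap, the precursor of the saposins that serve lipid breakdown, was at 4142, 4092 and 4282 against 309, 382 and 275 FPKM, and the thioesterase Ppt1 at 2792, 2513 and 2291 against 67.9, 66.6 and 74.5. No L-cDC2 library came near any L-cDC1 library for these 3, and Naaa, an amidase of fatty acid ethanolamides, was apart by 5.53. Npc2 (1.995) and Ppt2 (2.703) were higher too. The list as a whole was even, with 16 higher and 18 lower of 39 as deposited and 16 and 15 after scaling. Several cathepsins were lower, Ctsd (-2.56), Ctsa (-2.46), Ctsc (-1.87), Ctsh (-1.15) and Ctsz (-0.91), while Ctsb was at 131 and 138 FPKM and not called. The proton pump of the lysosome was mostly not called, with 3 higher and 2 lower of 17 as deposited and 5 and 1 after scaling (3 higher without L-cDC1 replicate 2). Its highest member by difference was Atp6v0a2, at 58.4 ± 1.32 against 15.9 ± 1.74 FPKM.

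Genes tied to phagosomes and cross-presentation counted 9 higher and 11 lower of 28 as deposited and 10 and 7 after scaling. Wdfy4, which cross-presentation of cell-borne antigen requires, was at 168, 166 and 166 FPKM in L-cDC1 and 93.3, 87.3 and 77.4 in L-cDC2, Rab43 at 17.1, 21 and 22.4 against 6.49, 6.7 and 6.92, and Apol7c, which opens phagosomes, at 554, 614 and 624 against 58.9, 48.4 and 62.5. The oxidase was the other way, with Cybb at 0.355, 3.48 and 1.48 against 93.4, 92.8 and 92.7 FPKM, so that the membrane subunit nearly absent from L-cDC1 was well expressed in L-cDC2. Its partner Cyba differed little, -0.42, called as deposited only. Among 43 Rab GTPases, which steer vesicles, 10 were higher and 10 lower as deposited and 13 and 7 after scaling (4 lower without L-cDC2 replicate 3), led by Rab7b, Rab32 (2.49) and Rab39 (1.86) on one side and Rab37 (-3.43) on the other.

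Chaperones and translocation factors of the endoplasmic reticulum (ER) were higher in L-cDC1 as a group. Of 40 tested, 28 were higher and 2 lower as deposited, and 31 and 2 after scaling, with medians of 0.62 and 0.81 against -0.19 and -0.04 over all genes. Hspa5 (BiP), the main ER chaperone, was at 547, 574 and 567 FPKM in L-cDC1 and 295, 327 and 297 in L-cDC2. Hsp90b1 (GRP94) was at 261, 218 and 189.9 against 84.3, 99.8 and 100.2, and calreticulin (Calr), which also assists MHC class I loading, at 250.2, 239 and 224 against 113, 110.3 and 108. The 3 L-cDC1 libraries stood above the 3 L-cDC2 libraries for each gene, by 0.88, 1.22 and 1.098. The disulphide isomerases Pdia3 (1.37), P4hb (1.25) and Pdia6 (203 against 94.4 FPKM) were higher too, as were Sdf2l1 (1.14), Creld2 (1.09) and the translocon genes Sec61a1 (0.76) and Sec61b (0.59). Xbp1, a transcription factor of the unfolded protein response that is active in cDC1, was higher by 0.48 (adjusted p = 0.00264), whereas Atf4, Ddit3 and Ern1 were not called and Atf6 was lower (-0.64).

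The promoters of these chaperones are shown because some hold the ER stress response element, the letters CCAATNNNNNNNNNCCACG. Whether the element bears on the difference between the subsets was not tested. In the RefSeq promoter table for GRCm38.p6, read as the 250 bases before each gene's start on both strands, the element stood in 0.113% of 32851 promoters and in 0.136% of those of the genes tested. It was found in 8 of 24 promoters (33.3%) of the ER genes higher in L-cDC1 on both scales, those of Calr, Canx, Creld2, Dnajc3, Ero1b, Hsp90b1, Hspa5 and Pdia6, and in 2 of 10 promoters of the other ER genes, Derl3 and Syvn1. In the lines below capitals mark the element, on the strand of the gene or as its reverse complement.
Hspa5 (chr2:34771840-34772089, + strand, GRCm38.p6): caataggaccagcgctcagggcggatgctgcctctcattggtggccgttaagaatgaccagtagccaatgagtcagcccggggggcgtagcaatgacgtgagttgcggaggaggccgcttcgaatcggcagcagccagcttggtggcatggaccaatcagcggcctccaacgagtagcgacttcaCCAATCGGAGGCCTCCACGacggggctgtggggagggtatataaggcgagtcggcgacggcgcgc
Hsp90b1 (chr10:86705445-86705694, - strand, GRCm38.p6): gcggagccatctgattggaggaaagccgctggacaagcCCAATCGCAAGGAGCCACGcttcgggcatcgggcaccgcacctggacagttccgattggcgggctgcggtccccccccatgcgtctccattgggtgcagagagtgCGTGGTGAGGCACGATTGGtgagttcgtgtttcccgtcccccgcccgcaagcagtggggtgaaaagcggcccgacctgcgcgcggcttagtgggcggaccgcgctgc
Calr (chr8:84846932-84847181, - strand, GRCm38.p6): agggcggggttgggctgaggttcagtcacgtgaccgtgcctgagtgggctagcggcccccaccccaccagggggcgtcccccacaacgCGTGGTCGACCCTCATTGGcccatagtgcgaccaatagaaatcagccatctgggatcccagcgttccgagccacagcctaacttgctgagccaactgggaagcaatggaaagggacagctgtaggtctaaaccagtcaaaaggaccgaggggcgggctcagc

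Type I interferon response genes, which restrict viruses, were mostly lower in L-cDC1. Of 56 tested, 8 were higher and 34 lower as deposited, and 11 and 32 after scaling, with a median of -1.27 as deposited. Rtp4 was at 0.223, 0.724 and 0.588 FPKM in L-cDC1 and 52.8, 63.1 and 56.1 in L-cDC2, Oas1a, an enzyme that activates RNA decay, at 1.6, 0.0512 and 1.03 against 61.6, 46.8 and 49.5, and Ifit3, which binds foreign RNA, at 0.364, 0.497 and 1.5 against 48, 34.1 and 34.4. All L-cDC1 libraries were near 0 for these genes and all L-cDC2 libraries were not. Oas2 (-4.74), Ifit1 (-3.73), Ifi27 (-3.76), Ifitm1 (-3.96) and Ifitm3, at 121 ± 16.1 against 614 ± 28.3 FPKM, were lower too. The genes were not lower as a block: Ifi211, a DNA-binding member of the Ifi200 family, was at 35.4, 33.3 and 24.3 against 0.658, 0.386 and 0.679 FPKM, and Trim30a (1.16), Ly6e (1.01), Mx1 (0.97) and Ifi207 (0.82) were higher in L-cDC1. Irf7, a factor that drives the response, was at 66.1 and 53.9 FPKM and was called higher after scaling alone. Ifit3 and Ifit3b, and the Oas1 genes, are near copies whose reads may have been split. Of 14 GTPases induced by interferon gamma 8 were lower, led by Gbp8 (-3.07), and 2, Iigp1 (1.64) and Tgtp1 (0.85), were higher.

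Promoters of 3 of these genes are shown for the interferon-stimulated response element, searched as GAAANNGAAA on both strands. It stood in 2.98% of all 32851 promoters, in 3.05% of those of the genes tested, in 9.09% (32 of 352) of those of genes lower in L-cDC1 by 2 or more and in 4.72% (11 of 233) of those of genes higher by 2 or more. Within the interferon list it was found in 15 of 28 promoters (53.6%) of the genes lower on both scales, in 4 of 7 (57.1%) of those higher on both scales and in 3 of 14 (21.4%) of the rest, so that the same element stands before genes that differ in opposite directions. Oas1a and Ifit3 are lower and Ifi211 is higher in L-cDC1, and capitals mark the element in either orientation.
Ifit3 (chr19:34583279-34583528, + strand, GRCm38.p6): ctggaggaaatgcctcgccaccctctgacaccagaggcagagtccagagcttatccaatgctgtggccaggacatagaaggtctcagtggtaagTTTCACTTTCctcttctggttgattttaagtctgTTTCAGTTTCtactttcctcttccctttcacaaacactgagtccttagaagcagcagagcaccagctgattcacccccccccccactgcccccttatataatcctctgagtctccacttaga
Oas1a (chr5:120907526-120907775, - strand, GRCm38.p6): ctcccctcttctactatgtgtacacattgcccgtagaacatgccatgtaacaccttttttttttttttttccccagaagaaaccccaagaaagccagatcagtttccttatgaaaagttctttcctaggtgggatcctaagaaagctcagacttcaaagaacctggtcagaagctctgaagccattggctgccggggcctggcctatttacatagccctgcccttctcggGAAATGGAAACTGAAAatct
Ifi211 (chr1:173913047-173913296, - strand, GRCm38.p6): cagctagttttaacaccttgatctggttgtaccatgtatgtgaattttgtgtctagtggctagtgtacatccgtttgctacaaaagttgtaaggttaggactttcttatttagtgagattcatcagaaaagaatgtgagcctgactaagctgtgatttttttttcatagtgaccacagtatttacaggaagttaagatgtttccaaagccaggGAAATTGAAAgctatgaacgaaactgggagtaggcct

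Components and targets of the NF-kB pathway, which carries signals of innate receptors and of the TNF family, were on the cDC2 side. Of 29 tested, 23 were lower and 2 higher as deposited, and 20 and 2 after scaling. Relb, a subunit that cDC2 need, was at 31.9, 33 and 35.9 FPKM in L-cDC1 and 171, 166 and 167 in L-cDC2, Nfkb1 at 9.86, 8.72 and 12.3 against 61.6, 55.5 and 58.4, and Rel at 15.5, 13.1 and 10.7 against 45.4, 41.7 and 43.4. No overlap was seen. Bcl3 (-2.43), Malt1 (-2.12), Nfkbiz (-1.93) and the inhibitor Nfkbia (-0.51) were lower as well, while Rela, Chuk and Traf6 were not called. Immediate early genes, which respond within minutes to stimulation, gave 13 lower of 30 as deposited, and 10 lower and 2 higher after scaling, with Nr4a1 (-1.68), Egr1 (-1.41) and Zfp36 (-1.42) lower. Fos, Dusp1 and Klf6 were not called as deposited and Fos was called higher after scaling. Dusp1 was at 475 and 487 FPKM.

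The letters GGGNNTTTCC, a kappa B motif, stood in 1.41% of all promoters and in 1.53% of those of the genes tested. They were found in 6 of 19 promoters (31.6%) of the 20 NF-kB genes lower in L-cDC1 on both scales and in 1 of 13 (7.69%) of the rest of the list, which holds the 3 genes lower as deposited alone. A promoter of Rel and one of Nfkbia, a subunit and its inhibitor, are shown with the motif in capitals.
Nfkbia (chr12:55492648-55492897, - strand, GRCm38.p6): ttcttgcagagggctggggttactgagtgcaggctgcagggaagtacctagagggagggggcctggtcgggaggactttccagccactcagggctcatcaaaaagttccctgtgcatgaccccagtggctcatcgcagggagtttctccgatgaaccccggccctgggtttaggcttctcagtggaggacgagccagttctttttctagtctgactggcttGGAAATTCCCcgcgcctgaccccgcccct
Rel (chr11:23770970-23771219, - strand, GRCm38.p6): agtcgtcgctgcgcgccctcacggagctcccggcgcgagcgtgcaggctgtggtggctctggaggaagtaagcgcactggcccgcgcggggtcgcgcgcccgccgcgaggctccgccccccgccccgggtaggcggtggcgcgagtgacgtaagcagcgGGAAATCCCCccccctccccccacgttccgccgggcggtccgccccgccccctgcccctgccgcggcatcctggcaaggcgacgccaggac

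Adhesion molecules gave each subset its own set. Of 15 integrins 7 were higher and 6 lower as deposited and 7 and 5 after scaling. Itgae (CD103), a receptor for E-cadherin, was at 33.6, 41.6 and 42.6 FPKM in L-cDC1 and 0.87, 0.381 and 0.986 in L-cDC2, and Itga8 at 15.6, 9.86 and 8.75 against 0.194, 0.187 and 0.307. Itgam and Itgb3 (-2.79) were lower in L-cDC1, and Itgax (CD11c), by which cDCs are commonly sorted, was at 115 ± 5.65 against 232 ± 7.61 FPKM (-1.01). Among 38 other adhesion genes 10 were higher and 19 lower as deposited and 11 and 19 after scaling. Cadm1 was at 58, 57.1 and 57.7 against 0.331, 0.253 and 0.458 FPKM, the tetraspanin Cd81 at 296, 279 and 259.7 against 33.6, 47.6 and 53, and Adgre1 (F4/80), a marker of red pulp macrophages that cDC2 also carry, at 1.22, 2.28 and 2.16 against 92.6, 90.3 and 102. Each of these separated the subsets completely. Esam (-3.19), a marker of Notch-dependent cDC2, was lower, and Sema4a (3.401) higher.

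Genes of the Notch pathway, which cDC2 of the spleen need, were divided, 4 higher (16%) and 9 lower (36%) of 25 as deposited and 7 and 7 (28% each) after scaling. Dtx1, a Notch target, was at 1.23, 1.02 and 2.31 FPKM in L-cDC1 and 125, 111 and 96.9 in L-cDC2. Notch4 was at 12.6, 17.9 and 25.3 against 0.531, 1.05 and 0.93, and Dtx4 was higher by 1.89. The counts after scaling fell to 4 higher without L-cDC1 replicate 3 and to 4 lower without L-cDC1 replicate 1. Hes1, another target, was at 8.46 and 13.7 FPKM and not called.

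Signalling enzymes were mostly lower in L-cDC1, 40 of 73 kinases, phosphatases and their regulators against 7 higher as deposited, and 34 against 9 after scaling. Fgr, a Src family kinase of myeloid cells, was at 15.8, 16.1 and 12.6 FPKM in L-cDC1 and 195, 196 and 181 in L-cDC2, and Ptpn6 (SHP-1), the phosphatase that inhibitory receptors recruit, at 131, 121 and 171 against 595, 574 and 588. Syk (-1.69), which acts below Fcer1g, Prkcb (-2.37), Rgs1 (-2.93) and Ptprc (-1.64) were lower too, and Rgs10 (2.07) and Inpp5d (0.74) were higher. Blk (-2.24) and Lck (-1.36) are lymphocyte kinases and stood beside the B and T cell markers given above. Of 64 regulators of actin and small GTPases 16 were higher and 33 lower as deposited and 19 and 24 after scaling. Rac2 was at 128 ± 3.03 against 341 ± 8.87 FPKM, and the severing protein gelsolin (Gsn) at 178 ± 17.5 against 489.6 ± 42. The septins were divided, with Septin3 (2.67), Septin9 (1.802) and Septin6 (1.01) higher and Septin1 (-1.12) lower.

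S100 and Ms4a genes were more often lower than higher in L-cDC1. S100a4 was at 0.453, 0.0826 and 0.358 FPKM in L-cDC1 and 29, 33 and 42.3 in L-cDC2, and S100a6 and S100a11 were lower (-3.42 and -1.22), while S100a1 was higher by 3.06. In all 5 of 8 S100 genes were lower and 1 higher on both scales. Of 10 genes of the Ms4a family and its Tmem176 relatives 7 were lower on both scales, led by Ms4a4c at 2.05, 4.41 and 4.65 against 141, 143 and 158 FPKM. Over all genes the share called lower was 26.6% as deposited and 19.1% after scaling.

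Metabolic genes of 1 pathway often stood on both sides. In glycolysis 12 of 31 genes were higher and 9 lower as deposited, and 15 and 8 after scaling. Hk3, a hexokinase of myeloid cells, was at 44.4, 32.5 and 47.5 FPKM in L-cDC1 and 0.718, 1.98 and 1.18 in L-cDC2, and Pfkp (2.06), Aldoc (2.36), Pgam1 (1.23), Pgk1 (1.21) and Ldha (0.94) were higher with it. The glucose transporter Slc2a3 (GLUT3) was at 1.17, 0.686 and 0.606 against 43.4, 43.5 and 37.5 FPKM, and the enolases Eno3 (-2.76) and Eno1 (-1.097) and the lactate dehydrogenase chain Ldhb (-2.79) were lower. Neither Slc2a3 nor Hk3 overlapped between subsets, and Gapdh was at 172 and 162 FPKM and not called.

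Lipid genes followed with 18 higher and 13 lower of 55 as deposited, and 22 and 8 after scaling. Plin2, which coats lipid droplets, was at 93.3, 87.9 and 97.1 FPKM in L-cDC1 and 3.78, 1.76 and 3.12 in L-cDC2. Fasn (1.32), Fads1 (2.25) and Elovl6 (1.08) of fatty acid synthesis were higher. Among enzymes of prostaglandins and leukotrienes, Ptgs2 (COX-2) was lower, at 0.0252 ± 0.0264 against 7.9 ± 2.48 FPKM, as were Hpgds (-1.78) and Lta4h (-1.87). The prostacyclin synthase gene Ptgis, which is not in that list, was higher, at 29.7, 31.6 and 30.8 against 0.0491, 0.0358 and 0.0215 FPKM. Of 161 solute carriers 35 were higher (21.7%) and 51 lower (31.7%) as deposited and 41 (25.5%) and 37 (23%) after scaling, with the lower shares near the 26.6% and 19.1% over all genes. Slc11a1 (NRAMP1), which moves iron and manganese out of phagosomes, was at 53.7, 47.8 and 62 against 0.861, 0.991 and 0.863 FPKM.

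Counts among housekeeping genes moved with the scale. Cytosolic ribosomal proteins counted 24 higher and 1 lower of 79 as deposited and 51 higher after scaling. The 24 became 39 without L-cDC1 replicate 1 and 15 without L-cDC1 replicate 3, and the 51 became 31 without the latter. Subunits of oxidative phosphorylation went from 19 higher to 37 of 81, mitochondrial ribosomal proteins from 16 to 29 of 77 (8 as deposited without L-cDC2 replicate 1 and 10 without L-cDC1 replicate 3) and proteasome subunits from 14 to 22 of 38 (9 as deposited without L-cDC2 replicate 2). On neither scale was more than 2 of any of these lists lower. The differences were small, for example 0.52 for Rplp0, 0.39 for Atp5b and 0.61 for Psmb5, with larger ones for Ndufb11 (0.82) and Uqcrfs1 (0.88).

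Genes of the cell cycle lay on the other side, and scaling reduced their number. Of 57 cell cycle genes 37 were lower and 1 higher as deposited, and 29 and 2 after scaling, with medians of -0.76 and -0.59. Ccnd1 and Ccnd2, the D-type cyclins, were at 17, 16.7 and 20.6 against 86.6, 73.5 and 93.7 FPKM and at 1.08, 1.85 and 1.34 against 17.3, 20.3 and 17.6, without overlap. Top2a (-1.26), Birc5 (-1.27) and Nusap1 (-1.62) of dividing cells were lower, whereas the replication genes Mcm2, Mcm3, Mcm5 and Mcm6 were not called on either scale, with Mcm6 at 56.2 and 58.9 FPKM. Cdkn1a (p21), which halts the cycle, was the 1 gene higher as deposited (1.59). Of 276 zinc finger genes named Zfp, 93 were lower (33.7%) and 7 higher as deposited and 63 (22.8%) and 16 after scaling (10 higher without L-cDC1 replicate 2). Among 55 chromatin regulators 19 were lower (34.5%) and none higher as deposited, and 14 (25.5%) lower and 2 higher after scaling. For both lists the share lower was not far from that over all genes, 26.6% and 19.1%. The shares higher were 2.54% and 5.8% for Zfp genes and 0% and 3.64% for chromatin regulators. Over all genes they were 12.9% as deposited and 18.1% after scaling. Chromatin regulators included Dnmt3a (-1.29), Setd2 (-1.28) and Kmt2c (-1.18) among the lower genes.

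**Figure D4:**
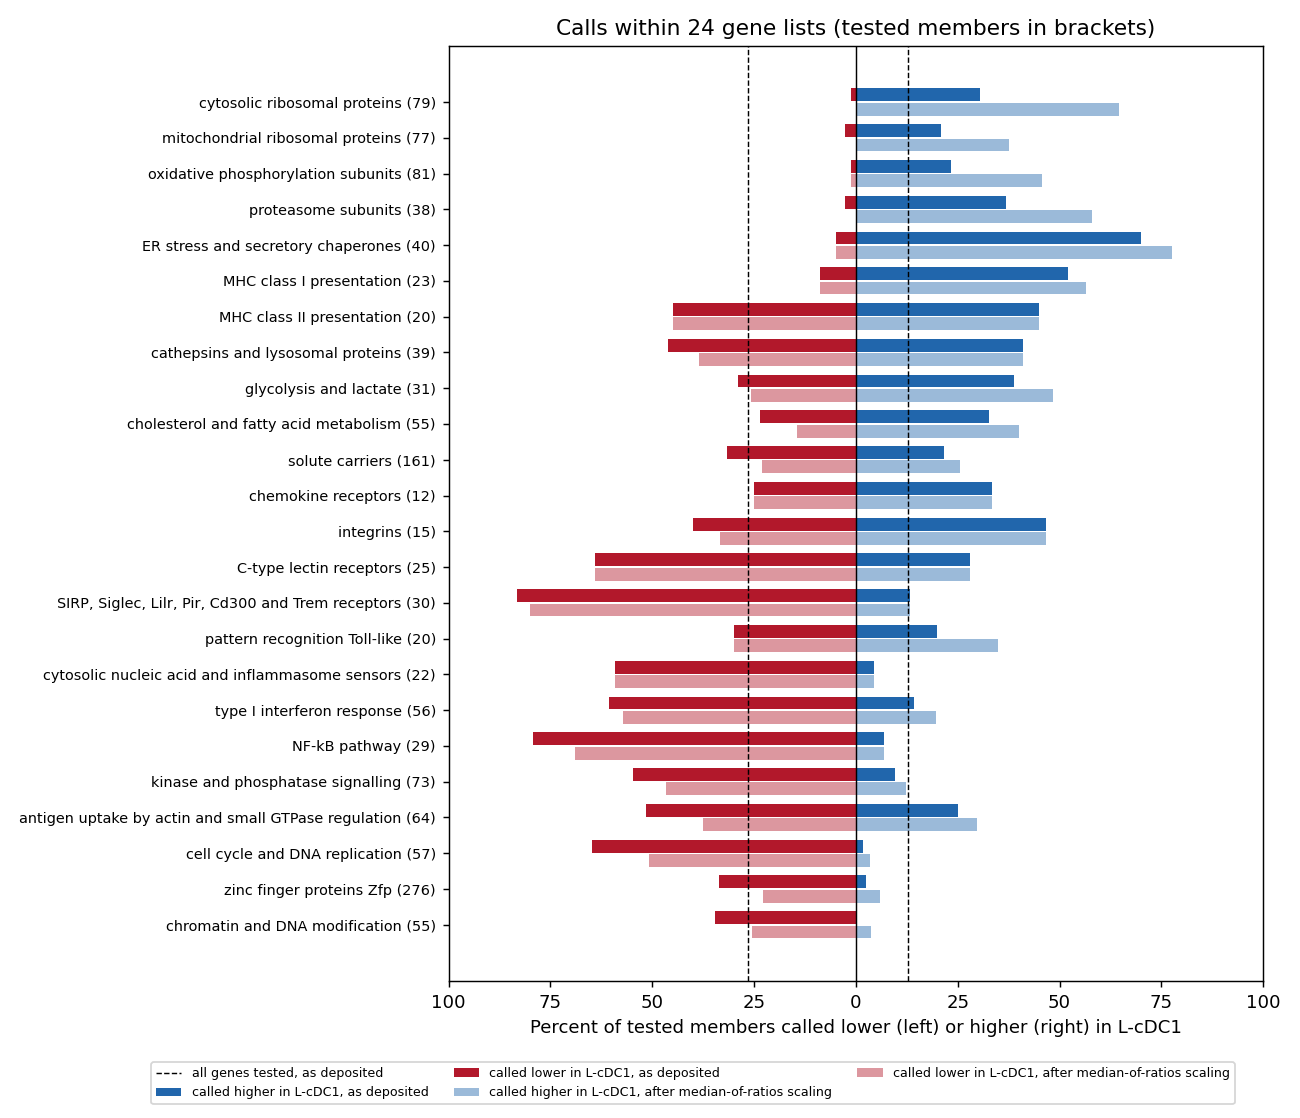
Percent of tested members called lower (bars to the left) and higher (bars to the right) in L-cDC1 for 24 gene lists, dark as deposited and pale after median-of-ratios scaling, with dashed lines at the shares over all genes as deposited, 26.6% lower and 12.9% higher. The pale bars are longer to the right for the ribosomal, oxidative phosphorylation and proteasome lists.

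Genes of early lymphoid cells were lower in L-cDC1, 11 of 15 against 1 higher on both scales. They include Cd7, Tcf7, Il7r, Ikzf3 (-2.14) and Mef2c (-1.84), and the 1 higher gene was Ccr9. Without L-cDC2 replicate 2 the counts were 10 lower and 1 higher as deposited, and 9 and 1 after scaling. The T and B cell marker sums given above were also higher in L-cDC2, and their part in these genes was not tested. Genes of cell death showed Casp6 at 37.2 ± 3.9 against 8.67 ± 0.45 FPKM, Ripk3 (1.14) and Bid (1.11) higher and Pmaip1 (-1.41) and Bcl2a1b (-1.59) lower, among 8 higher and 10 lower of 32 as deposited and 11 and 7 after scaling. The 8 became 5 without L-cDC1 replicate 2 and 4 without L-cDC1 replicate 3.

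Very few genes separated the subsets differently in L than in M. The difference cDC1 minus cDC2 in L was tested against that in M, and 37 genes passed (0.298%), 24 above 0 (0.193%) and 13 below (0.105%), with 34 after scaling (0.273%), 22 above 0 (0.177%) and 12 below (0.0965%). At an unadjusted p under 0.05 there were 1061, and a gene that did not pass is not thereby shown to differ alike in L and M. Of the 37, 6 were antibody segments, and 16 had the larger difference in L. Il12b had a difference of 4.09 in L and 2.26 in M (interaction 1.83, SE 0.228, adjusted p = 0.00581). Its level was 30.6 ± 6.8 and 0.831 ± 0.199 FPKM in L-cDC1 and L-cDC2 against 16.1 ± 0.709 and 2.57 ± 0.227 in M-cDC1 and M-cDC2. Psap differed by 3.704 in L and 2.23 in M (adjusted p = 0.00581), with M-cDC2 at 868 ± 91.2 FPKM against 322 ± 54.3 in L-cDC2 and M-cDC1 at 4073 ± 458 against 4172 ± 98.3 in L-cDC1. Olfm1 (4.57 in L, 2.77 in M) and Lgals3 (3.03 and 1.86) also lay further apart in L.

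Of the 16 monocyte and macrophage markers tested, 2 were among the 37 genes, Ace and Lyz2, both with a difference above 0 in this test. Ace, an enzyme of nonclassical monocytes, was at 0.239 ± 0.18 and 0.412 ± 0.0286 FPKM in L-cDC1 and L-cDC2 and at 0.0336 ± 0.0345 and 4.6 ± 0.672 in M-cDC1 and M-cDC2. Lyz2 was at 252 ± 88.2 FPKM in L-cDC2 and 932 ± 113 in M-cDC2, and its difference went from -1.08 in M to 0.41 in L. Clec7a (-1.43 in L, -3.57 in M), Clec4a3 (-4.11 and -5.99), Adgre4 (-1.88 and -4.25) and Ccl9 (-1.298 and -3.05) were lower in L-cDC1 by less than in M-cDC1. With a pseudocount of 0.1 the calls of Clec4a3, Adgre4 and Ccl9 ended (adjusted p = 0.24, 0.279 and 0.449). Cd300lb was listed at 0 in all L-cDC1 libraries and stood at 4.04 ± 0.89 FPKM in L-cDC2, 0.0103 ± 0.00892 in M-cDC1 and 18.1 ± 0.942 in M-cDC2, and its call ended in the same way (0.2). The monocyte and macrophage marker sum was 1232 to 1449.5 FPKM in M-cDC2 against 521 to 665 in L-cDC2, and its part in these genes was not tested. Tlr12 and Fcrla went the other way, with differences of 3.44 and 2.05 in L and 4.72 and 4.18 in M. Of the 37 genes, 10 passed with each of the 12 libraries left out in turn, but of those named here Lgals3, Lyz2, Adgre4, Ccl9, Tlr12 and Fcrla each missed the threshold without at least 1 library. The count of 37 came to 10 without M-cDC2 replicate 2, 14 without M-cDC1 replicate 2, 21 without M-cDC1 replicate 3 and 24 without either L-cDC1 replicate 2 or L-cDC1 replicate 3.

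**Figure D5:**
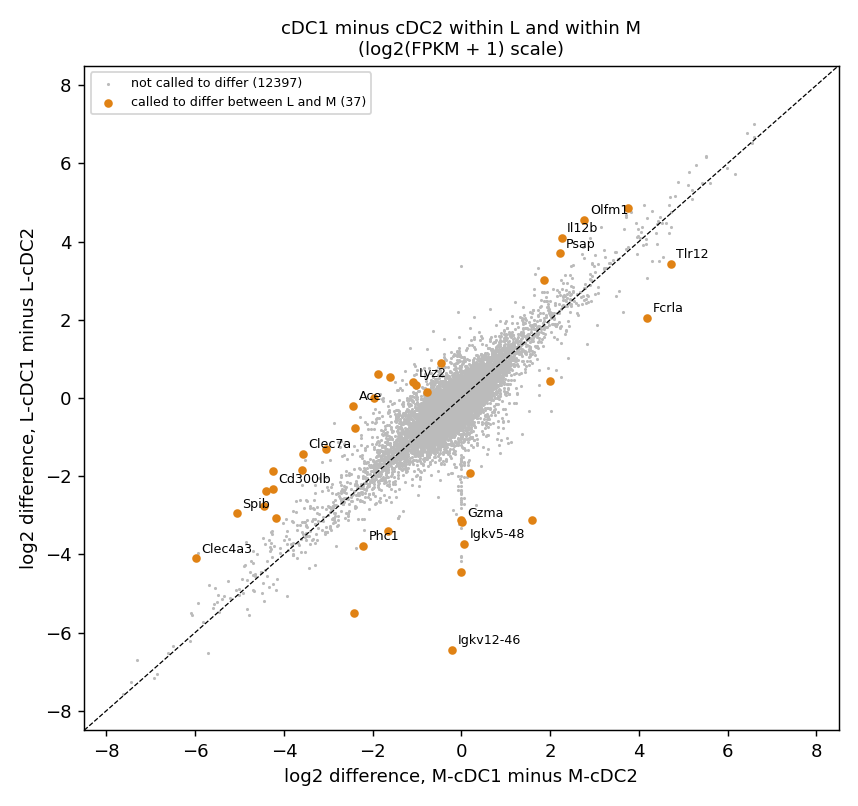
Log2 difference cDC1 minus cDC2 in L (vertical) against that in M (horizontal) for 12434 genes, each a point, with the 37 genes whose differences were called apart in orange and the line of equal differences dashed. Il12b, Psap and Olfm1 lie above the line on the right, Ace, Clec7a and Clec4a3 above it on the left, and the antibody segments below it.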

How the data were processed

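SMART-Seq HT and Nextera XT libraries, per the labels' protocols, were made from spleen cDCs in 4 groups of 3. These kits do not mark strand, so reads of overlapping or antisense genes cannot be told apart. STAR 2.7.9a and featureCounts 2.0.1 are listed in the submitters' processing notes, together with DESeq2 1.20.0 and the trimmers cutadapt 3.7, Trim Galore 0.6.7 and Trimmomatic 0.39. These notes give a human build although the gene symbols are mouse, so the build used is not given in the sources used here and no coordinate of the table is printed. The authors deposited 1 table of FPKM values with gene lengths. Each value times its length was a whole multiple of 1 read in that library (100% of values, within 0.01), which gave the depths.

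Genes with at least 1 FPKM in 3 of the 12 libraries were tested as log2(FPKM + 1) with limma 3.58.1 (R 4.3.3), 1 mean per group over all 12 libraries, a trend of variance on intensity (8 residual degrees of freedom), with Benjamini-Hochberg adjustment over the 12434 genes and a call at 0.05. Median-of-ratios factors came from 12415 genes above 0 in all libraries. The test of L against M is the interaction term of the same model. With 3 libraries against 3 an exact permutation test could reach a two-sided p of 0.1 at best, so none is given. The table has 55322 entries, 1705 of them with a repeated symbol and none on the mitochondrial chromosome. The code was tested on simulated data.

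Within L-cDC1 and within L-cDC2 the libraries correlated at 0.962 to 0.965 and 0.958 to 0.967, against 0.833 to 0.847 between them (Pearson, across genes, log2 values), and replicates differed beyond counting noise, so all were kept. The members and gene lists were chosen with earlier results of these data known. Named genes are the 20 largest differences each way among genes called on both scales without overlap and with at least 5 FPKM in the higher group (antibody and T cell receptor segments and unnamed models left out), up to 6 called members of each list by smallest p, all members of the identity, pan-DC and transcription factor lists (some items are not reported here), the 10 most abundant genes of each group, and the 10 smallest interaction p-values. A further 117 genes were named after their values were seen: Adgre4, Atf4, Atf6, Bcl3, Canx, Cd300e, Cd300lf, Cd40, Cd80, Cd86, Cgas, Chuk, Clec12a, Clec4b1, Clec4n, Creld2, Csf2rb, Csf2rb2, Ctsb, Ctsc, Ctsh, Ctss, Ctsz, Cyba, Ddit3, Derl3, Dnajc3, Dusp1, Elovl6, Eno1, Ern1, Ero1b, Fasn, Fcgr2b, Fcgr3, Ffar4, Fos, Fscn1, Gapdh, Gsdmd, H2-D1, H2-DMa, H2-K1, H2-Ob, Havcr2, Hpgds, Hsp90b1, Icosl, Ifi207, Ifih1, Ifit1, Ifit3, Ifitm1, Ifnar1, Ifnar2, Ifngr1, Ifngr2, Il10ra, Il15ra, Il27, Il6ra, Inpp5d, Irf7, Klf6, Laptm4b, Ldha, Ldhb, Lgals3, Lgals9, Lilr4b, Ly96, Lyz2, Mavs, Mcm2, Mcm3, Mcm5, Mcm6, Mx1, Myd88, Ncr1, Nfkbia, Nlrc5, Nlrp3, Npc2, Oas1a, Pgam1, Ppt2, Prkcb, Psme2, Ptger2, Ptprc, Pycard, Rela, Rgs1, S100a8, Sec61a1, Sec61b, Septin1, Septin6, Siglecg, Syk, Syvn1, Tap2, Tapbp, Tgtp1, Ticam1, Tlr13, Tlr2, Tlr4, Tlr6, Tlr7, Tlr9, Tnf, Top2a, Traf6, Tyrobp and Unc93b1. Promoters are those of RefSeq for GRCm38.p6, without chromosome 18.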

Additional observations from a re-analysis of the deposited data

Results flagged for a closer look

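The difference cDC1 minus cDC2 itself differed between L and M for 10 genes with the smallest interaction p-values, and for all 10 the call held with each library left out in turn (limma), but not under every other alternative. The differences of differences, L minus M on the log2(FPKM + 1) scale, were 1.83 for Il12b, 1.48 for Psap, 1.79 for Olfm1, 2.23 for Ace, 2.14 for Clec7a, 1.88 for Clec4a3, 1.93 for Cd300lb, -1.57 for Phc1, -3.78 for Igkv5-48 and -3.11 for Ighv3-6. Phc1, a Polycomb protein gene, was at 0.861 and 24.5 FPKM in L-cDC1 and L-cDC2 against 1.65 and 11.4 in M-cDC1 and M-cDC2. The antibody segment Igkv5-48 was at 14.8 FPKM in L-cDC2 and at 0.0967 or less in the other groups. Ighv3-6 was at 8.58 FPKM in L-cDC2 and listed at 0 in every other library. Both segments stood beside the B cell marker sums of the L-cDC2 libraries, whose part in them was not tested. With a pseudocount of 0.1 the calls of Cd300lb and Clec4a3 ended (adjusted p = 0.2 and 0.24). In the planned count test on reads recovered from FPKM, whose values are not given because the deposited unit is FPKM, the calls of Igkv5-48, Ighv3-6, Cd300lb and Clec4a3 ended.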

How the results depend on the processing

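The count of genes higher in L-cDC1, 1605, ranged from 1287 (at least 5 FPKM) to 2330 (quantile normalization), and 1401 to 1487 with a library left out. The count of lower genes, 3308, was 2319 at 5 FPKM and 2098 after quantile normalization, and 2785 to 3048 with a library left out. With the 6 L libraries alone the counts were 1458 and 2882. The 37 genes that differed between L and M became 21 with a pseudocount of 0.1, 26 with no filter, and 10 to 38 with a library left out. Same-numbered L libraries deviated together at r = 0.045, 0.037 and 0.013. Such values cannot show whether they share an animal or a batch, so pairing by number remains unknown. With the number as a replicate block the counts were 1617 higher, 3335 lower and 25. Quantile normalization turned the differences of H2-Ab1 (-0.45), H2-Aa (0.00), H2-Eb1 (-0.22) and the unnamed model Gm28437 (-0.59), and the cause was not tested. Depth limits genes near 0.126 to 0.165 FPKM, the level of 3 reads on 1 kb. The count test planned for reads recovered from FPKM is not given in values, since the deposited unit is FPKM. In that count test the calls between L and M of several genes ended, among them Igkv5-48, Ighv3-6, Cd300lb and Clec4a3.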
